A study of Arabidopsis thaliana with 6 samples.

Results

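RRTF1 (AT4G34410), ERF13 (AT2G44840), ORA47 (AT1G74930), ERF1A (AT4G17500), ERF4 (AT3G15210), ERF5 (AT5G47230), ERF6 (AT4G17490), ERF104 (AT5G61600) and ERF105 (AT5G51190) are 9 Arabidopsis genes for AP2/ERF transcription factors known from wounding and stress. They are 9 of the 33602 genes in a table of RNA-seq read counts, and all 9 had a count in each library. The 9 were chosen by family and by their counts in these same libraries, among them the low ratios of RRTF1, ERF13 and ORA47 in ein5-1 against Col-0. All values below are therefore descriptions of these genes and carry no test. The study sequenced ribosomal RNA-depleted RNA from the aerial parts of 18-day-old plants kept at 22 °C in days of 16 h light and 8 h darkness. The 6 genotypes were wild-type Col-0, the single mutants ein5-1, ski2-3 and rdr6-11, ein5-1 ski2-3 (the double mutant) and rdr6-11 ein5-1 ski2-3 (the triple mutant). Its title points to transcript changes of the double mutant that depend on RDR6. Each genotype was 1 library and each mutation was represented by 1 allele. The number of plants behind a library is not stated in the labels.

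EIN5, also called XRN4, digests uncapped mRNA from its 5′ end in the cytoplasm, and SKI2 is the helicase that helps the exosome to degrade mRNA from the other end. RDR6 copies RNA into double strands from which small interfering RNAs are made. AP2/ERF proteins bind DNA through the domain that gives the family its name, and ERF proteins are best known for binding the GCC box of defence genes. Their mRNAs are typical early transcripts: they appear and decline quickly after wounding, touch, cold, oxidative stress or microbial signals.

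The libraries held from 20205663 reads in Col-0 to 33100379 in the double mutant, of which 10942840 to 16593256 fell on nuclear genes. Levels are given in RPM, reads per 1000000 nuclear reads after scaling by the trimmed mean of M-values (TMM), with an exact 95% interval for counting error in the ratios. In Col-0, 19.2% of nuclear reads came from ribosomal RNA genes, against 0.335% to 2.71% in the other 5 libraries. Among genes with 1 to 20 reads, 82.1% of the counts were even in rdr6-11 and 81.8% in the triple mutant, against 38.5% to 41.7% in the other 4 libraries. Whether a fragment could count more than once is not stated in the labels, so counting intervals that use rdr6-11 or the triple mutant are lower limits of the error. Of the mutated genes, EIN5 had scaled log2 ratios against Col-0 of -1.05 in ein5-1, -0.54 in the double and -1.26 in the triple mutant. SKI2 was at -0.65 in ski2-3, -0.37 in the double and -0.78 in the triple mutant, and RDR6 at -1.77 in rdr6-11 and -1.53 in the triple mutant. Leaf transcripts were abundant, with 62886 to 167137 reads of the Rubisco subunit gene RBCS1A, while the floral genes AP1, AP3 and AG had at most 16 reads. The root marker PYK10 had 5290 to 9454 reads and the root aquaporin TIP2;3 had 4 to 59. In RNA from whole shoots, fewer cells of a type and less RNA per cell cannot be told apart.

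Compared per length, by the median of the deposited RPKM over the 6 libraries, ERF104 (41.9) and ERF4 (40.4) were the most abundant of the 9 transcripts. ERF105 (19.2), ERF1A (13.5), ERF6 (13.3), ERF5 (9.93) and ORA47 (7.94) followed in RPKM. ERF13 (2.50) and RRTF1 (2.38) were the least abundant in RPKM. The least abundant genes also varied most, with scaled levels spanning 13.2-fold for RRTF1, 12.7-fold for ERF13 and 10.2-fold for ORA47. ERF1A and ERF104 spanned the least, 2.00-fold and 2.55-fold.

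RRTF1, also called ERF109, is a redox-responsive factor that links wounding and jasmonate to auxin synthesis. Its scaled level was 26.3 RPM in Col-0, 1.99 in ein5-1, 6.36 in ski2-3, 8.06 in the double mutant, 9.42 in rdr6-11 and 2.40 in the triple mutant. The reads behind these levels numbered 247, 24, 67, 153, 123 and 38. Col-0 stood above every other library, ein5-1 and the triple mutant were lowest and differed from each other by less than counting error, and the other 3 lay between. ERF13, a wound-responsive ERF of group IX, had 22.1 RPM in Col-0, 1.74 in ein5-1, 6.26 in ski2-3, 4.11 in the double mutant, 7.43 in rdr6-11 and 2.78 in the triple mutant. Its Col-0 value was again the highest, and the next, rdr6-11, was 1.57 lower on the log2 scale (95% counting interval of the step 1.22 to 1.94). ERF13 was low in all 5 mutant libraries, each with fewer than 100 reads against 208 in Col-0.

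ORA47 is a factor of the DREB branch of the family that switches on genes of jasmonate synthesis. Its scaled level was 33.1 RPM in Col-0, 3.24 in ein5-1, 6.64 in ski2-3, 20.9 in the double mutant, 22.5 in rdr6-11 and 10.3 in the triple mutant. Both single decay mutants were low, while the double mutant and rdr6-11 were close to each other, with a step of 0.11 in log2 whose counting interval (-0.11 to 0.33) included 0.

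**Figure D1:**
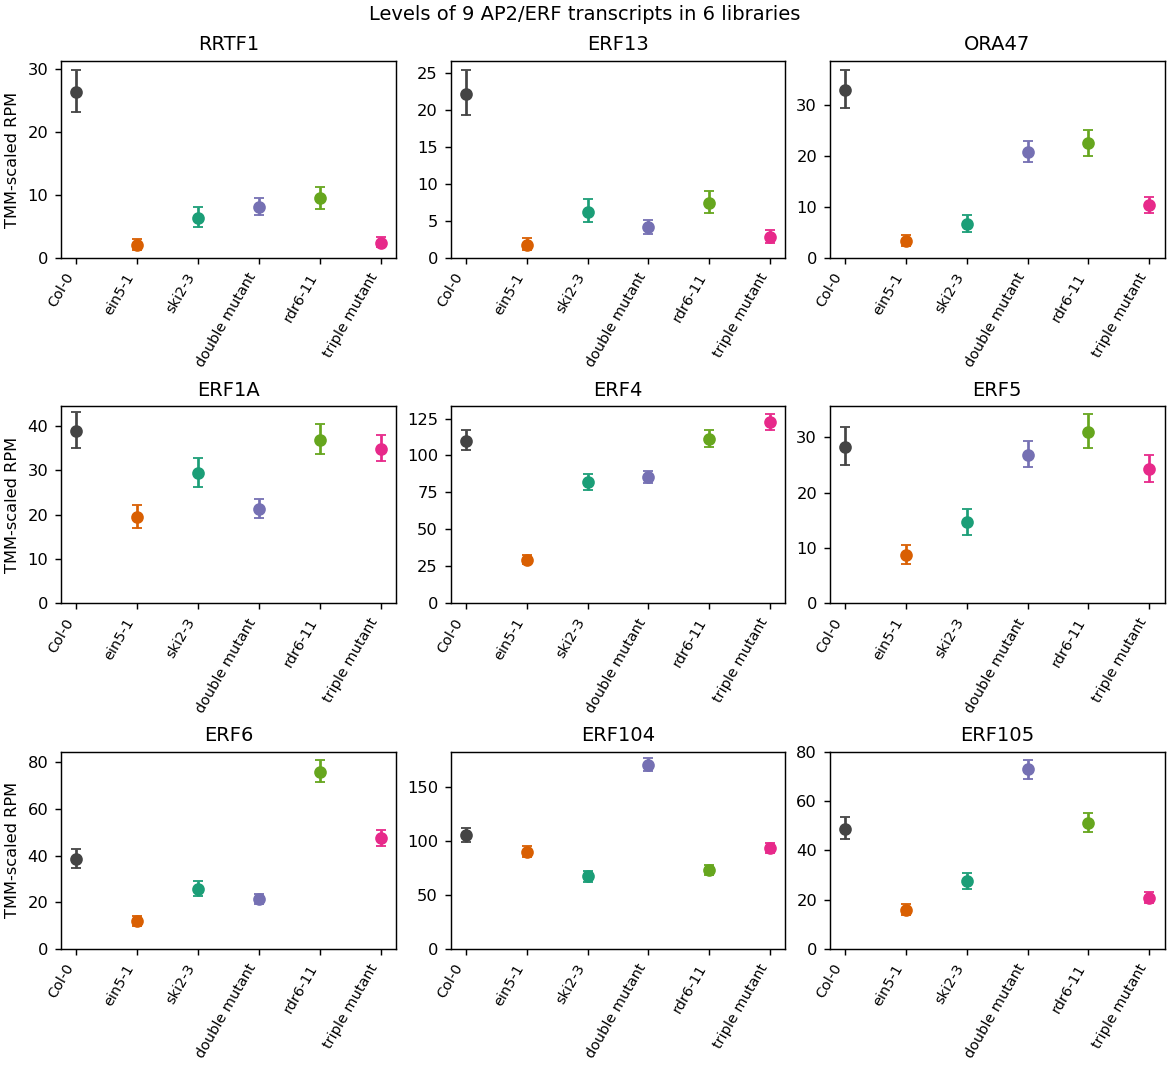
Scaled level of each of the 9 transcripts (vertical axis, TMM-scaled RPM, a separate linear scale from 0 in each panel) in the 6 libraries; points are single libraries and bars are exact 95% counting intervals. The ein5-1 library was the lowest for 8 of the 9 transcripts, and RRTF1, ERF13 and ORA47 were highest in Col-0, at 26.3, 22.1 and 33.1. Low ratios in ein5-1 against Col-0 helped to choose the genes, so this order is partly built in.

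ERF5 and ERF6, a closely related pair of group IX that acts in chitin signalling and osmotic stress, were both highest in rdr6-11 and lowest in ein5-1. ERF5 stood at 28.2 RPM in Col-0, 8.71 in ein5-1, 14.6 in ski2-3, 26.8 in the double mutant, 31.0 in rdr6-11 and 24.3 in the triple mutant. For ERF5 the 4 higher libraries were separated by steps within counting error, and ski2-3 and ein5-1 lay below them. ERF6 stood at 38.5 in Col-0, 11.8 in ein5-1, 25.7 in ski2-3, 21.3 in the double mutant, 76.1 in rdr6-11 and 47.6 in the triple mutant. Every step in the order of the ERF6 levels exceeded counting error, and both libraries with rdr6-11 were above Col-0.

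ERF104, a substrate of the MAP kinase MPK6 in the response to flagellin, had 105 RPM in Col-0, 89.9 in ein5-1, 66.9 in ski2-3, 170 in the double mutant, 72.9 in rdr6-11 and 92.9 in the triple mutant. It was the only one of the 9 whose lowest library was ski2-3. ERF105, known from cold acclimation, had 48.8 in Col-0, 15.8 in ein5-1, 27.3 in ski2-3, 72.9 in the double mutant, 51.1 in rdr6-11 and 20.7 in the triple mutant. Both genes peaked in the double mutant, and the lowest levels of ERF105 were those of ein5-1 and the triple mutant.

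ERF1A, an activator of GCC box genes, had the narrowest range, with 38.8 RPM in Col-0, 19.4 in ein5-1, 29.3 in ski2-3, 21.3 in the double mutant, 36.8 in rdr6-11 and 34.8 in the triple mutant. ERF1A was low in the 2 libraries that carried ein5-1 with RDR6 intact, and those 2 differed by less than counting error. ERF4, a repressor of group VIII with an EAR motif, had 110 RPM in Col-0, 29.4 in ein5-1, 82.0 in ski2-3, 85.2 in the double mutant, 111 in rdr6-11 and 122 in the triple mutant. Its ein5-1 value lay 1.48 in log2 below that of the next library, ski2-3, a step larger than counting error, and the other 5 libraries lay between 82.0 and 122 on the same scale.

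Differences are called by size alone, without a test: a gene was measured with 100 or more reads in either library of a pair, and called from 2-fold upward. In ein5-1 against Col-0, 7 of the 9 transcripts were at least 2-fold lower and 0 were higher, where 2.03% of the 12987 genes measured were lower and 1.45% higher. The lowest log2 ratios were those of RRTF1 (-3.69, counting interval -4.39 to -3.12), ERF13 (-3.63, -4.39 to -3.02) and ORA47 (-3.34, -3.87 to -2.87). ERF4 (-1.90), ERF6 (-1.71), ERF5 (-1.69) and ERF105 (-1.63) were also called. ERF1A at -0.999 lay just short of 2-fold and ERF104 was at -0.23, which became 0.04 when libraries were scaled by total nuclear reads. The median of the 9 log2 ratios was -1.71, against 0.04 over all genes measured. Under other scalings the share of genes at least 2-fold lower ran from 1.29% to 2.15%, and the share higher from 1.36% to 3.74% in place of 1.45%. The group was formed with this comparison known, so nothing is read from these counts.

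In ski2-3 against Col-0, ORA47 (log2 ratio -2.31, counting interval -2.71 to -1.94), RRTF1 (-2.04, -2.46 to -1.65) and ERF13 (-1.81, -2.24 to -1.41) were at least 2-fold lower, 3 of 9 where 1.17% of 12520 genes were lower and 2.43% higher. The other 6 were not called, with log2 ratios from -0.95 (ERF5) to -0.40 (ERF1A). In the double mutant against Col-0, RRTF1 (-1.70) and ERF13 (-2.42) were at least 2-fold lower, 2 of 9 where 7.02% of 15068 genes were lower and 8.61% higher. ORA47 was at -0.66 there, ERF104 at 0.69 and ERF105 at 0.58, and ERF104 was called higher when libraries were scaled by total nuclear reads. All comparisons with Col-0 share that 1 library, so a high value in Col-0 enters each of them. Choosing genes by low ratios in ein5-1 against Col-0 favours high values in Col-0, so nothing is read from these counts.

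**Figure D2:**
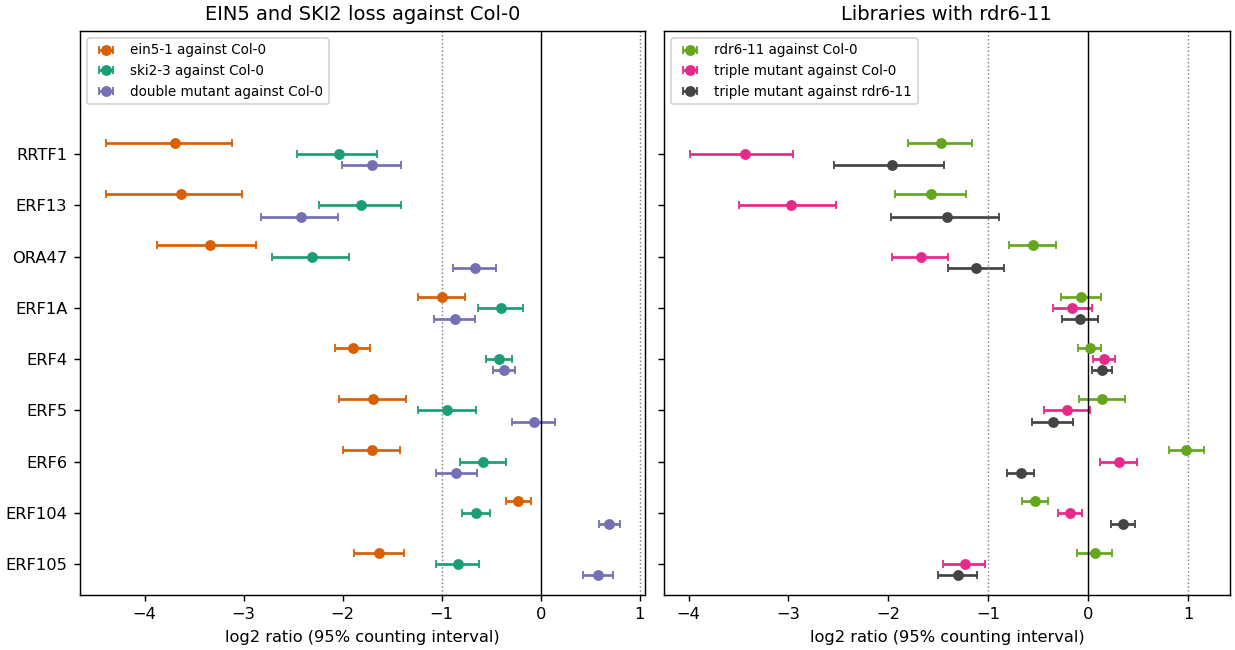
Log2 ratio of each transcript (horizontal axis) with exact 95% counting intervals; left, ein5-1, ski2-3 and the double mutant against Col-0; right, rdr6-11 and the triple mutant against Col-0 and the triple mutant against rdr6-11. Dotted lines mark 2-fold. RRTF1 and ERF13 lay past it on the lower side in all 5 comparisons with Col-0. The ratios ran from -3.69 to -1.48 for RRTF1 and from -3.63 to -1.57 for ERF13. All 5 use the same Col-0 library, and low ratios of these genes in ein5-1 against Col-0 helped to choose them.

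All 9 transcripts had a higher value in the double mutant than in ein5-1, although for ERF1A the step was within counting error. By the rule of size, 5 of the 8 transcripts measured were at least 2-fold higher and 0 were lower, where 6.81% of 15084 genes were higher and 5.56% lower. ORA47 had the largest log2 ratio (2.68, counting interval 2.21 to 3.20), followed by ERF105 (2.21, 1.99 to 2.44), RRTF1 (2.00, 1.39 to 2.70), ERF5 (1.62) and ERF4 (1.53). ERF104 (0.92), ERF6 (0.86) and ERF1A (0.13) were not called, and ERF13, at 1.22 from 78 and 21 reads, was under the read minimum. The comparison reuses the ein5-1 library, whose low values helped to choose the genes, so higher values against it are partly fixed by that choice and nothing is read from the count. The 3 leaf markers were all lower in the double mutant of this pair, with log2 ratios from -1.43 for RBCS1A to -0.38 for LHCB1.3, and their part in the result was not tested.

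Against ski2-3, the double mutant was at least 2-fold higher for ORA47 (log2 ratio 1.65), ERF105 (1.41) and ERF104 (1.35), 3 of 8 measured, where 6.71% of 15093 genes were higher and 6.65% lower. RRTF1 (0.34), ERF5 (0.87), ERF4 (0.05), ERF6 (-0.27) and ERF1A (-0.46) were not called. The 3 leaf markers were lower in the double mutant here too, at -1.44 for RBCS1A, -0.87 for RCA and -0.49 for LHCB1.3, and their part was not tested. Between the single mutants, ein5-1 was lower than ski2-3 for ERF4 (-1.48) and ERF6 (-1.12), 2 of 6 measured, where 3.51% of 13119 genes were lower and 0.412% higher. RRTF1, ERF13 and ORA47 had under 100 reads in both single mutants and were not measured against each other there. The genes were chosen by counts in these same libraries, so nothing is read from the counts of either comparison.

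The departure of the double mutant from the sum of its single mutants is its log2 ratio against Col-0 minus those of ein5-1 and ski2-3. It was upward by at least 2-fold for 8 of the 9 transcripts, where 7.96% of 15193 genes departed upward and 8.52% downward. The departure was 4.98 for ORA47, 4.04 for RRTF1, 3.04 for ERF105, 3.03 for ERF13, 2.56 for ERF5, 1.95 for ERF4, 1.58 for ERF104, 1.44 for ERF6 and 0.54 for ERF1A, all in log2. The median of the 9 was 2.56, against -0.02 over all genes. The Col-0 level enters each departure with a positive sign and the ein5-1 level with a negative one. As low ratios of ein5-1 against Col-0 helped to choose the genes, upward departures are partly built in, and nothing is read from their number.

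**Figure D3:**
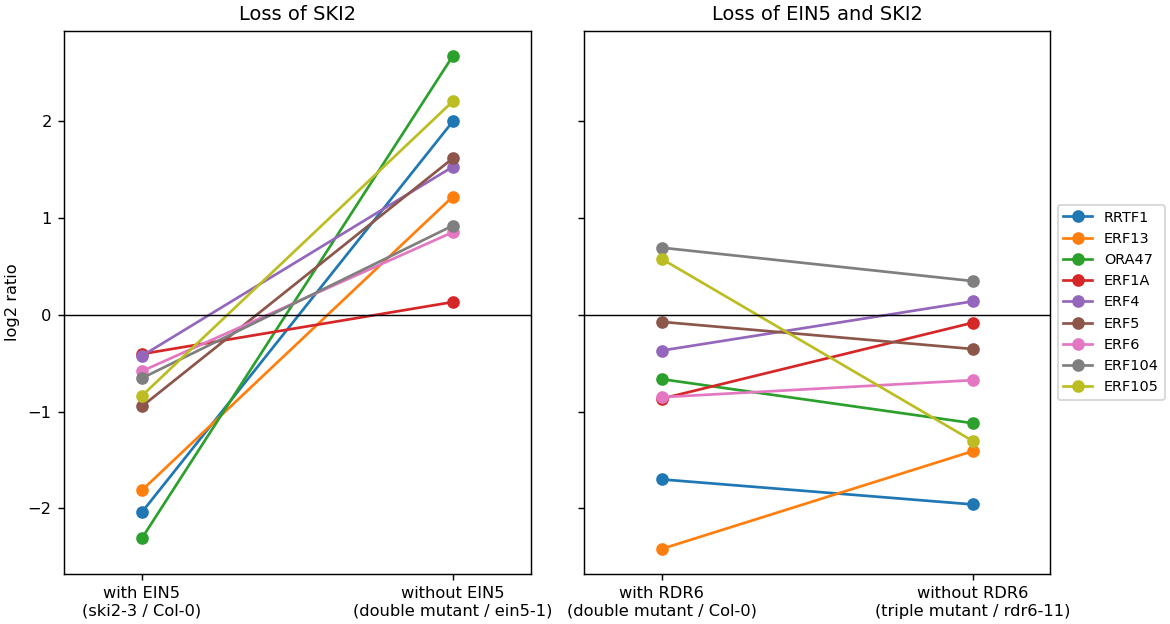
Log2 ratio (vertical axis) for the loss of SKI2 with and without EIN5 (left) and for the loss of EIN5 and SKI2 with and without RDR6 (right), with 1 line for each transcript. All 9 lines on the left go upward, from -2.31 to 2.68 for ORA47, while on the right ERF105 goes from 0.58 to -1.30 and ERF13 from -2.42 to -1.41. The rise on the left is the departure from the sum, partly built in by the choice of genes.

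In rdr6-11 against Col-0, RRTF1 (log2 ratio -1.48, counting interval -1.80 to -1.16) and ERF13 (-1.57, -1.94 to -1.22) were at least 2-fold lower, 2 of 9 where 5.74% of 13300 genes were lower and 4.65% higher. ERF6 stood at 0.98, ORA47 at -0.55 and ERF104 at -0.53, and none of these was called, although ERF6 was called higher at 1.02 under median-of-ratios scaling and at 1.19 under scaling by total nuclear reads. In the triple mutant against Col-0, RRTF1 (-3.43), ERF13 (-2.98), ORA47 (-1.67) and ERF105 (-1.24) were at least 2-fold lower, 4 of 9 where 4.61% of 14307 genes were lower and 6.08% higher. Under scaling by total nuclear reads ERF105 was at -0.98 and its call was lost. The 2 of 9 and 4 of 9 called here use the Col-0 library that entered the choice of genes, and nothing is read from them. Clock transcripts differed in the same comparisons. The 5 morning genes CCA1, LHY, RVE8, PRR9 and PRR7 had a median log2 ratio of 5.35 in rdr6-11 against Col-0 and 5.86 in the triple mutant against Col-0. The 5 evening genes TOC1, ELF4, LUX, GI and PRR5 had medians of -2.53 and -2.64, with GI above 0 in both. The 3 leaf markers were above 0 in both comparisons, with RCA at 1.18 in rdr6-11 and 1.28 in the triple mutant. The part of these clock and leaf differences in the ERF values was not tested.

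The triple mutant and rdr6-11 were close in clock transcripts, with medians of 0.36 for the morning genes and -0.10 for the 3 evening genes measured. Between them, RRTF1 (log2 ratio -1.96, counting interval -2.54 to -1.44), ERF105 (-1.30, -1.50 to -1.11) and ORA47 (-1.12, -1.41 to -0.84) were at least 2-fold lower in the triple mutant. These are 3 of 8 transcripts measured, in a comparison where 0.274% of 14234 genes, or 39, were at least 2-fold lower and 1.18% higher. The genes and comparisons were chosen with earlier results of these data known, so nothing is read from this count. The ORA47 call was lost by the ratio of deposited RPKM (-0.98), with organelle reads in the scaling (-0.96) and by the whole interval, and RRTF1 was under the read minimum with halved counts. ERF13, with 97 and 44 reads, was at -1.41 and under the read minimum. ERF6 (-0.68), ERF5 (-0.35), ERF1A (-0.08), ERF4 (0.14) and ERF104 (0.35) were not called.

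The same loss of EIN5 and SKI2 was set beside itself with and without RDR6. ERF105 was at 0.58 with RDR6 and at -1.30 without it, a difference of -1.88 in log2 and the only downward one of at least 2-fold, where 6.21% of 15707 genes differed downward. ERF13 was at -2.42 and -1.41, a difference of 1.01 and the only upward one, where 7.77% of genes differed upward. That difference lies at the limit of 2-fold and rests on 97 and 44 reads without RDR6, where the ratio alone had a counting interval from -1.97 to -0.89. With 1 of 9 in each direction, the counts are near the shares over all genes and nothing is read from them. RRTF1 was at -1.70 and -1.96, and ORA47 at -0.66 and -1.12. Directly against the triple mutant, the double mutant was at least 2-fold higher for ERF105 (1.82), RRTF1 (1.74) and ORA47 (1.01), 3 of 8 measured, where 12% of 15642 genes were higher. ERF6 was at least 2-fold lower at -1.16, 1 of 8, where 11.1% of genes were. ERF104 at 0.88 was not called. It was called higher when scaled by total nuclear reads (1.03), with organelle reads (1.02) or without ribosomal RNA (1.05), and by deposited RPKM (1.03). The ORA47 call was lost under median-of-ratios scaling (0.95) and with a pseudocount of 5 (0.99), and the ERF6 call under scaling without ribosomal RNA (-0.98). That comparison again sets libraries apart in clock transcripts, with a median of -5.06 over the 5 morning genes, and in leaf markers, at -2.06 for RCA, -1.46 for RBCS1A and -0.49 for LHCB1.3. The part of either was not tested. As the genes were chosen with earlier results of these data known, nothing is read from the number called against the triple mutant.

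Other ERF genes of groups VIII and IX had a median near 0 in ein5-1 against Col-0. Of 17 listed genes, 8 were measured there, with a median log2 ratio of -0.07. Of these, 0 were at least 2-fold higher and 2 were lower, where 1.45% of genes were higher and 2.03% lower. The 2 lower ones were the repressor ERF11 (-2.80, from 225 to 41 reads) and ORA59 (-1.41 with 104 and 50 reads), which joins ethylene and jasmonate signals. ERF3 (0.96), ERF107 (0.75) and ERF106 (0.53) were above 0 there. ERF8 (-0.94) and ERF2 (-0.61) were below 0 without being called, so that 4 of the 8 were below 0. ERF11 was at 2.54 in the double mutant against ein5-1, in the range of ORA47. Of the 7 other group X genes, the group of RRTF1, 0 reached the read minimum in ein5-1 against Col-0, and of 10 DREB genes only CEJ1 did, at -0.60.

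Many early stress transcripts outside the family were low in ein5-1 as well. Of 21 measured, 11 were at least 2-fold lower and 0 higher, where 2.03% of genes were lower and 1.45% higher. The list was chosen with earlier results of these data known. The median log2 ratio was -1.16. The lower ones included CML38 (-2.84), a calmodulin-like gene, WRKY40 (-2.35), TCH4 (-2.16), a touch-induced cell wall enzyme, and the zinc finger gene ZAT12 (-2.12). In the double mutant against ein5-1, 12 of 22 were at least 2-fold higher and 1 was lower, where 6.81% of genes were higher and 5.56% lower. That comparison reuses the ein5-1 library, in which many of them were low. CML38 (2.26), the deadenylase gene CAF1A (2.01), ZAT12 (1.92) and WRKY46 (1.91) were highest, and WRKY18 (-1.05) was the lower one. In the triple mutant against rdr6-11, 0 of 23 were called in either direction, with a median of -0.18. Over all genes 0.274% were lower and 1.18% higher there, so 0 called is near that share and nothing is read from it.

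Jasmonate synthesis genes, the targets of ORA47, had another order across the libraries. In ein5-1 against Col-0, 5 of 11 were at least 2-fold lower, where 2.03% of genes were. Among the 5 were LOX4 (log2 ratio -2.22), AOC3 (-1.59) and LOX3 (-1.50). In ski2-3, where ORA47 was at -2.31, 0 of 11 were called, against 3.59% of genes. All 11 were above 0 there, with a median of 0.69. In the double mutant against ein5-1, where ORA47 was at 2.68, 0 of 11 were called, against 12.4% of genes, and the median was 0.07. With only 11 genes, these counts of 0 are near the shares over all genes and nothing is read from them. A part of ORA47 in these values was not tested. Of the JAZ repressors and MYC2, the jasmonate pathway's own early targets, 4 of 9 were at least 2-fold lower in ein5-1 and 0 were higher. Over all genes 2.03% were lower and 1.45% higher. The 4 were JAZ7 (-1.72), JAZ3 (-1.46), MYC2 (-1.26) and JAZ9 (-1.01).

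Of 8 genes that act upstream of ERF proteins, MPK3, MPK6, MKK4, MKK5, MKK9, EIN2, EIN3 and EIL1, 0 were called in ein5-1 or ski2-3 against Col-0. Over all genes 3.48% and 3.59% were called in those comparisons, so 0 called is near these shares and nothing is read from it. In ein5-1 the log2 ratios of the 8 genes ran from -0.91 (MPK3) to 0.32 (EIN3). Against Col-0, MPK3 was at 1.48 in rdr6-11 and 1.08 in the triple mutant, where ERF6 was at 0.98 and 0.31. Clock and leaf transcripts differed in the same comparisons, and a link between MPK3 and ERF6 was not tested. Of 5 defence genes activated through GCC boxes, all 5 were at least 2-fold lower in ein5-1 against Col-0, where 2.03% of genes were. HEL (-1.14) and HCHIB (-1.01) lay near the limit of 2-fold. Scaling by total nuclear reads moved the median of all genes in that comparison by 0.27, more than their distance from the limit. All 5 defence genes were at least 2-fold higher in ski2-3, where 2.43% of genes were. These genes also differed elsewhere. Against Col-0, all 5 were at least 2-fold lower in rdr6-11, with PDF1.2 at -7.32, and 3 in the double and 1 in the triple mutant were lower. The shares of genes lower there were 5.74%, 7.02% and 4.61%. The defensin gene PDF1.2 was at -1.70 in ein5-1 and at 2.68 in ski2-3, where all 9 AP2/ERF transcripts were below 0. PDF1.2 has near-identical copies, PDF1.2b and PDF1.3 among them, and the labels do not say how reads were split between such copies.

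Overlapping genes were looked up in the RefSeq TAIR10.1 annotation. RRTF1 overlaps AT4G34412 on the other strand, which had 66 to 184 reads and scaled levels from 6.74 to 9.69 RPM, and a long non-coding RNA gene, AT4G08985. ERF105 overlaps AT5G51180 on the other strand, with 13.3 to 17.3 RPM, and ORA47 overlaps AT1G74929, which had 0 reads in every library. The labels do not say whether counting used strand, so reads of a gene and of its antisense partner cannot be told apart. ERF6 and ERF1A are neighbours in the gene order, and their log2 ratios in rdr6-11 against Col-0 were 0.98 and -0.08. ERF104 lies next to ERF107, and in ein5-1 against Col-0 they were at -0.23 and 0.75.

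The mean profile of the 9 transcripts over the 6 libraries was compared with those of 15740 other genes by the root-mean-square difference of log2 levels, each centred on the gene's own mean. The 10 closest genes had differences from 0.196 to 0.305, against a median of 0.767 over all genes compared. The 9 transcripts themselves lay from 0.268 (ERF5) to 0.721 (ERF104) from their mean, and only 1 was closer than the tenth gene. The mean is therefore not a profile that all 9 share, and its high Col-0 and low ein5-1 values are partly built in by the choice of genes. The 10 closest genes were AT2G39650, AT1G14480, the zinc finger gene STZ (ZAT10), AT1G18740, AT1G50750, the calmodulin-like gene TCH2, AT4G27280, MYBR1 (MYB44), SR34b and MYB73. STZ had 800 reads in Col-0, 242 in ein5-1, 592 in ski2-3, 1398 in the double mutant, 1150 in rdr6-11 and 897 in the triple mutant. STZ, TCH2 and MYBR1 were on the list of early stress transcripts. With 6 libraries the profile has few points: without the Col-0 library 6 of the 10 genes were again among the 10 closest, and without the rdr6-11 and triple mutant libraries 2 were.

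**Figure D4:**
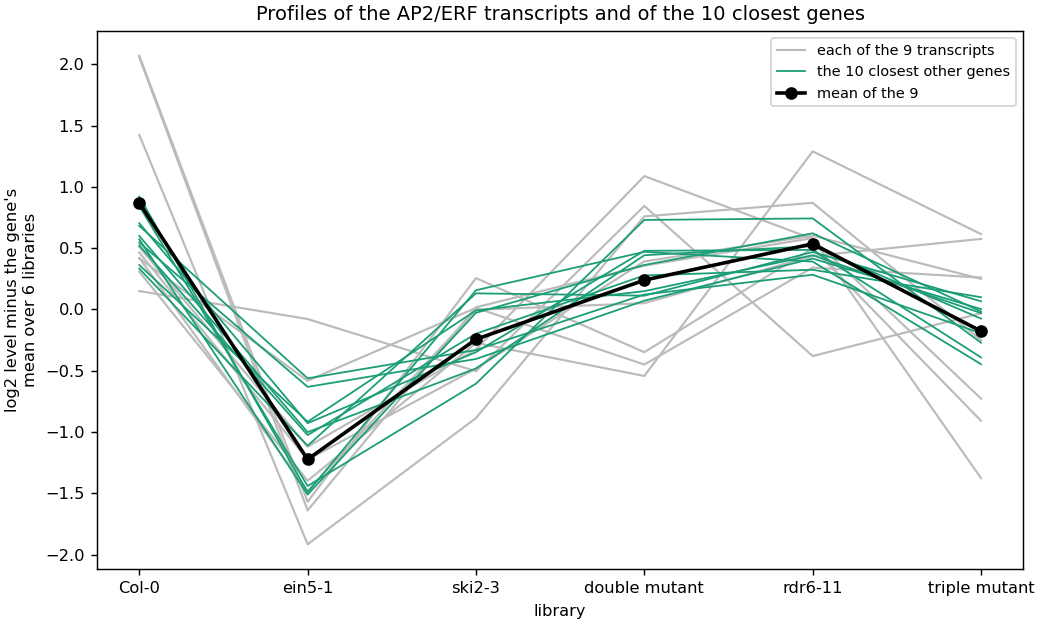
Log2 level of each gene minus its own mean over the 6 libraries (vertical axis) by library (horizontal axis), for the 9 AP2/ERF transcripts (grey), their mean (black) and the 10 closest other genes (green); lines join libraries for reading only. The mean profile is highest in Col-0 and lowest in ein5-1, which is partly built in by the choice of genes. The 10 closest genes lie within a root-mean-square difference of 0.305 of it, and the 9 transcripts at 0.268 to 0.721.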

How the data were processed

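Read counts per gene for 6 libraries were deposited by the authors, per the file headers; the values were whole numbers. RPKM values and log2 ratios of RPKM were deposited beside them, per the file headers. The deposited p-values and false discovery rates were not used. The submitters' processing notes name BWA and TAIR9; the version of BWA, the counting of reads, multiple hits and the use of strand were not given in the sources used here. Empty cells were read as 0, and none belonged to the 9 genes. As the reference at hand was TAIR10.1, it gave only names, gene classes, neighbours and overlaps, for 32835 matched identifiers, and no sequence.

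TMM factors on nuclear genes were computed in numpy 2.4.6 (trims 0.3 and 0.05), with a pseudocount of 0.5 in ratios. Genes for rRNA and tRNA entered the scaling but no comparison. Intervals are exact (Clopper-Pearson, 95%, scipy 1.17.1) and cover counting error only, since PCR reads carry no molecular identifiers. With 1 library per genotype no test, standard error or p-value was possible. The calculation was tested on simulated data.

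The named genes are the 9 members, the 10 with the closest profile, the targeted genes, neighbouring ERF genes and up to 4 of the strongest per list; other named genes were chosen after their values were seen. The members, lists and comparisons were chosen with earlier results of these data known. The departures from the sum and between backgrounds were added after their values were seen. Alternatives were 5 scalings or units, a pseudocount of 5, read minimums of 20 or none, calls by the whole interval, and halved counts for rdr6-11 and the triple mutant.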

Additional observations from a re-analysis of the deposited data

Results flagged for a closer look

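Loss of SKI2 was on opposite sides of 2-fold in Col-0 and in ein5-1 for 3 transcripts. RRTF1 had a log2 ratio of -2.04 in ski2-3 against Col-0 and of 2.00 in the double mutant against ein5-1, a difference of 4.04. ERF13 had -1.81 and 1.22, a difference of 3.04, with 78 and 21 reads behind the second ratio. ORA47 had -2.31 and 2.68, a difference of 4.98.

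Loss of EIN5 was on opposite sides of 2-fold in Col-0 and in ski2-3 for ORA47, at -3.34 and 1.65, a difference of 4.98. ERF105 was likewise on opposite sides, at -1.63 and 1.41, a difference of 3.04. With 1 library per genotype, none of these differences was tested. The rule that both ratios lie past 2-fold was chosen after the values were seen. Col-0 and the double mutant enter each difference with the same sign, so a high Col-0 library raises it, and the low ein5-1 values helped to choose the genes. Apart from a small effect of the pseudocount, the difference for SKI2 loss, that for EIN5 loss and the departure from the sum are the same quantity. Their equal values are not separate observations.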

How the results depend on the processing

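Of 630 log2 ratios of single transcripts under 7 alternatives, 527 stayed within the counting interval and 103 moved out of it. Of the called ratios 0 changed sign. Called ratios are at least 2-fold and scalings moved the median of all genes by at most 0.41 in log2, so nothing is read from that 0. All 90 stayed within it under median-of-ratios scaling. All 90 also stayed when the rdr6-11 and triple mutant counts were halved. The sizes of these libraries were halved with them, so ratios could move only by rounding and nothing is read from that setting. Scaling by total nuclear reads moved the median of all genes by up to 0.41 in log2, and ratios near 0 can change sign by that: ERF5 in the double mutant against Col-0 was at -0.07 and ran from -0.13 to 0.34. Of 103 counts under alternatives, 95 stayed within 1.5 times the reported one. For ein5-1 against ski2-3, where 2 of the 9 were called, 5 were called with no read minimum and 5 with a minimum of 20 reads. In that comparison 1 was called by the ratio of deposited RPKM, 1 by total reads with organelle genes and 1 by the whole interval. For the double against the triple mutant, 4 were called, and 2 by the whole interval. The 7 called in ein5-1 against Col-0 were 8 under median-of-ratios scaling, as ERF1A lies at the limit. Of the 10 genes closest in profile, 6 were again among the closest without the Col-0 library and 2 without the rdr6-11 and triple mutant libraries. The cause of these moves was not tested.

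Scaling changed how background calls split. Of the genes called, the share lower was 44.9% in the double mutant against Col-0 (12.9% to 50.1% under other scalings), 45.0% against ein5-1 (29.2% to 48.9%), 49.8% against ski2-3 (15.9% to 55.5%) and 48.1% against the triple mutant (34.5% to 52.8%). It was 58.4% in ein5-1 against Col-0 (25.7% to 61.3%), 89.5% in ein5-1 against ski2-3 (55.6% to 90.4%), 32.4% in ski2-3 against Col-0 (14.4% to 56.6%), 55.3% in rdr6-11 against Col-0 (35.7% to 62.1%), 43.1% for the triple mutant against Col-0 (23.3% to 45.9%) and 18.8% for the triple mutant against rdr6-11 (7.97% to 22.3%). No paired analysis was possible because each genotype was 1 library. No library was left out of a group for the same reason, and differences between plants of 1 genotype are not known. Depth limits RRTF1 and ERF13 most, with 24 and 21 reads in ein5-1.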
